A study of Mus with 15 samples.

Results

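The genes described here encode the vascular endothelial growth factors and their receptors, a family of 9 genes picked by symbol from the 55471 genes of the deposited matrix. They are the ligand genes Vegfa, Vegfb, Vegfc and Pgf, the receptor kinase genes Flt1, Kdr and Flt4, and the neuropilin genes Nrp1 and Nrp2. Their expression was measured by RNA sequencing of adipose tissue in fat grafts at day 7, in fat grafts at day 3 and in control adipose tissue, with 5 samples in each group. All samples of the 3 groups carry the labels wild type, C57BL/6 and an age of 7 weeks. The labels name neither donor nor recipient, do not give the graft site, and do not say what the control tissue went through.

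VEGF ligands are secreted proteins that bind tyrosine kinase receptors, chiefly on endothelial cells. VEGF-A, the product of Vegfa, is the main growth factor for blood vessels, is made by adipocytes among other cells, and is induced by low oxygen. It signals mostly through the receptor encoded by Kdr, while the receptor encoded by Flt1 binds VEGF-A tightly, signals weakly and also takes up placental growth factor (Pgf) and VEGF-B. VEGF-C (Vegfc) and VEGF-D (Vegfd) act on the receptor encoded by Flt4, which is best known from lymphatic endothelium. Neuropilins have no kinase of their own: they bind VEGFs and class 3 semaphorins and serve as co-receptors.

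Each of the 9 symbols had a single entry in the matrix, annotated as protein coding. On the build mm10, with positions as the matrix gives them, Vegfa (ENSMUSG00000023951) lies on chromosome 17 from 46016993 to 46032369 and has 13 transcripts. Vegfb (ENSMUSG00000024962) lies on chromosome 19 from 6982473 to 6987651, and Pgf (ENSMUSG00000004791) on chromosome 12 from 85166635 to 85177790. Vegfc (ENSMUSG00000031520) lies on chromosome 8 from 54077606 to 54187096. Both Flt1 (ENSMUSG00000029648, 147561604 to 147726011) and Kdr (ENSMUSG00000062960, 75932827 to 75978458) are on chromosome 5, and Flt4 (ENSMUSG00000020357, 49609263 to 49652739) is on chromosome 11. Nrp1 (ENSMUSG00000025810) is on chromosome 8 from 128358604 to 128503363, where it overlaps Mir1903, a microRNA gene listed with 0 counts. Nrp2 (ENSMUSG00000025969) is on chromosome 1 from 62703285 to 62818695, where it overlaps Gm29083 and Gm37121, which held 7 and 299 counts over all samples against 53942 for Nrp2. The values are sums over a gene's transcripts, so secreted short forms, which are known for Flt1 and the neuropilins, are not separated from the membrane forms.

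Summed estimated counts per library ran over 20.2 to 32 M in day 7 grafts, 23.7 to 29.4 M in day 3 grafts and 17.1 to 31.8 M in controls. All 9 genes passed the filter on low counts and lay above its level in every sample, and the lowest estimated count among them was 29, for Pgf in control 1. On the first principal component of all tested genes (68.2% of the variance) grafts and controls were apart. On the second (10.5%) day 7 graft 5, at -9.32, and day 3 graft 1, at 1.29, lay between the other day 7 grafts (19.5 to 28.0) and the other day 3 grafts (-32.3 to -14.2). Among the controls, control 2 had the highest score of skeletal muscle markers (8.99, as mean log2(CPM + 1), against 2.04 to 5.49). Control 4 had the lowest score of lymphocyte markers (3.50 against 6.87 to 7.62), and control 5 the highest of macrophage markers (7.49 against 5.33 to 6.41). Adipocyte markers were present in every library, with none of 9 at 0, and their CPM values (counts scaled to library size) summed to 1832 to 3605 in day 7 grafts, 2881 to 6980.5 in day 3 grafts and 12520 to 40737 in controls.

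Most of the family differed between grafts and controls, and in both directions. In day 7 grafts Pgf, Vegfc, Flt4, Nrp1 and Nrp2 were higher and Vegfa and Vegfb were lower than in controls. In day 3 grafts Pgf, Flt1, Flt4, Nrp1 and Nrp2 were higher and Vegfb was lower. The threshold for a call was an adjusted p of 0.05 in limma-voom (Benjamini-Hochberg over the 16051 genes tested). These calls are 7 of 9 genes at day 7, where 60.7% of all tested genes were called, and 6 of 9 at day 3, where 60.4% were called, so the shares in the family lay near those of all genes. By direction, 5 were higher and 2 lower at day 7, against 32.2% and 28.4% of all genes, and 5 were higher and 1 lower at day 3, against 30.1% and 30.3%. These shares of all genes also apply to every count of called genes or markers against control given below. The median log2 fold change of the 9 genes was 0.83 at day 7 and 0.96 at day 3, against 0.03 and -0.02 over all tested genes. Both comparisons use the same 5 controls. The 37 genes of the mitochondrial genome held 2.17% to 2.89% of counts in day 7 grafts and 2.35% to 4.02% in day 3 grafts, against 9.01% to 14.9% in controls, with no overlap. This share moved with every comparison of grafts and controls given here, and its part in them was not tested. In a bulk sample, a change in the number of cells of a type and a change in RNA per cell cannot be told apart.

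Among the ligands, Vegfa was the most abundant in the control tissue, and its level was lower in day 7 grafts. It was at 68.1, 47.0, 106, 89.5 and 226 CPM in day 7 grafts 1 to 5, at 91.4, 289, 172, 251.5 and 208 CPM in day 3 grafts 1 to 5, and at 246, 233, 158, 494 and 136 CPM in controls 1 to 5. Day 7 grafts 1 to 4 were below every control, day 7 graft 5 was within the controls' range, and control 4 was the highest of all 15 samples. Vegfa fell by 1.29 ± 0.42 at day 7 against control on the log2 scale (± SE, limma-voom adjusted p = 0.0165), and the fitted change ran from -1.63 to -1 when each sample was left out in turn, with the call kept each time. At day 3 against control the change was -0.27 ± 0.44 (adjusted p = 0.606, 95% interval -1.20 to 0.66), and only day 3 graft 1 was below every control. That change was 0.02 without control 4 and 5.2e-05 without day 3 graft 1. Beside the lower Vegfa at day 7, all 9 adipocyte markers fell, with a median change of -4.14. Their part in the result was not tested.

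Vegfb, whose product binds Flt1 and is best known from tissues with high fatty acid use, was lower in every graft than in every control. It was at 6.33, 9.01, 7.14, 8.03 and 7.11 CPM in day 7 grafts 1 to 5 and at 5.41, 10.3, 7.34, 7.21 and 9.45 CPM in day 3 grafts 1 to 5. The controls stood at 40.5, 44.2, 27.0, 80.8 and 14.6 CPM, so the groups did not overlap, with control 5 nearest to the grafts and control 4 farthest. Vegfb fell by 2.25 ± 0.40 at day 7 (adjusted p = 2.07e-04) and fell by 2.19 ± 0.40 at day 3 (adjusted p = 2.79e-04) on the log2 scale. The adipocyte markers, 9 of 9 of which also fell at day 3 (median -2.28), moved beside it. Their part in the result was not tested.

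Pgf, placental growth factor, a ligand of Flt1 but not of Kdr, showed the largest fitted change of the 9 genes in both comparisons with controls. It was at 37.3, 17.3, 71.1, 65.8 and 189.5 CPM in day 7 grafts 1 to 5, and at 51.1, 242, 162, 151 and 93.9 CPM in day 3 grafts 1 to 5. In controls 1 to 5 it was at 1.52, 2.38, 2.72, 1.60 and 2.37 CPM. Every graft was above every control, and the grafts differed among themselves far more than the controls did. Pgf rose by 4.76 ± 0.91 on the log2 scale at day 7 (adjusted p = 4.01e-04) and by 5.88 ± 0.92 at day 3 (adjusted p = 7.59e-05). The 15 hypoxia-inducible factors and targets examined had scores, as mean log2(CPM + 1), of 5.55 to 7.58 in day 7 grafts, 6.55 to 7.61 in day 3 grafts and 4.72 to 5.43 in controls. Macrophage markers, 8 of 9 of which rose at both times, summed to 8437 to 13068 CPM in day 7 grafts, 4549 to 10651 CPM in day 3 grafts and 1237 to 3538 CPM in controls. The part of either in the change of Pgf was not tested.

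Vegfc, the main growth factor of lymphatic vessels, was the ligand with the lowest mean TPM in each of the 3 groups, overlapping Pgf in controls, and it stood highest at day 7. It was at 8.65, 6.51, 11.02, 7.33 and 11.1 CPM in day 7 grafts 1 to 5 and at 3.89, 3.13, 3.33, 4.68 and 4.38 CPM in day 3 grafts 1 to 5. In controls 1 to 5 it was at 1.89, 2.15, 2.58, 1.90 and 5.12 CPM. Every day 7 graft was above every day 3 graft and every control, while control 5 was above all day 3 grafts. Vegfc rose by 1.78 ± 0.26 at day 7 against control (adjusted p = 4.14e-05). At day 3 its change was 0.60 ± 0.29 (adjusted p = 0.0848, 95% interval -0.02 to 1.21), and without control 5 it was 0.86 (adjusted p = 0.0125). Vegfd, the other ligand of Flt4, is not among the 9 genes and is named here after its values were seen. Its change was 1.14 ± 0.35 at day 7 (39.3 ± 21.6 against 17.1 ± 6.23 CPM in controls, mean ± SD, n = 5 each, adjusted p = 0.0102). At day 3 it was 1.85 ± 0.34 (60.7 ± 17.5 CPM, adjusted p = 3.33e-04).

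**Figure D1:**
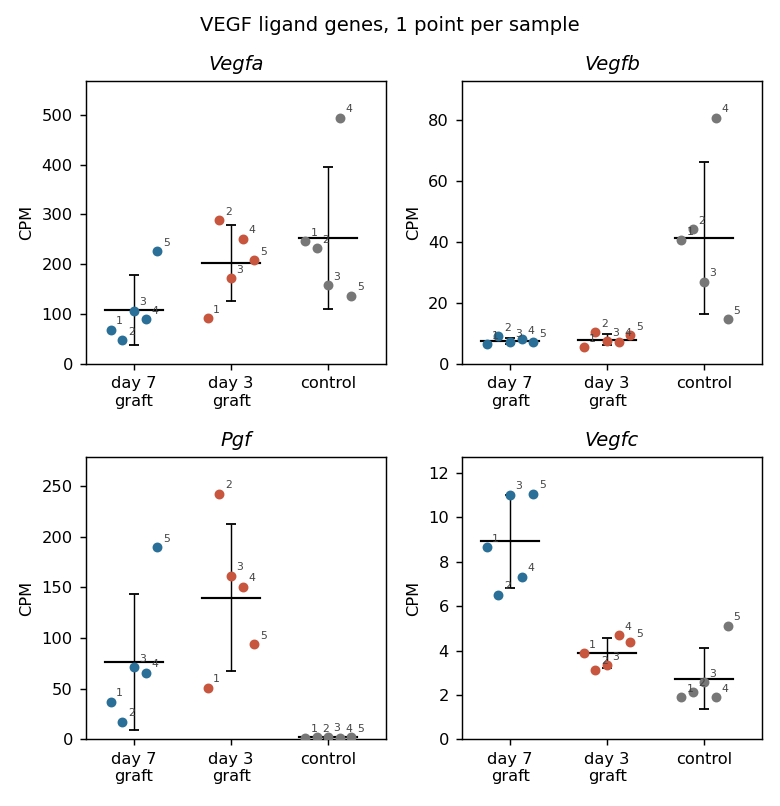
CPM (vertical axis, from 0) of the ligand genes Vegfa, Vegfb, Pgf and Vegfc in day 7 grafts, day 3 grafts and controls, with 1 numbered point per sample, a line at the mean and bars of 1 SD (n = 5). Vegfb has all grafts below all controls, Pgf has all grafts above all controls, and Vegfc is highest in the day 7 grafts, at 6.51 to 11.1 CPM.

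The receptor kinase genes did not move together. Flt1 was at 74.3, 41.6, 89.3, 87.2 and 104 CPM in day 7 grafts 1 to 5, at 44.9, 225, 129.5, 186 and 137 CPM in day 3 grafts 1 to 5, and at 46.5, 47.6, 38.9, 69.3 and 45.8 CPM in controls 1 to 5. Day 3 grafts 2 to 5 were above every control, and day 3 graft 1 was among the controls. Flt1 rose by 1.38 ± 0.36 at day 3 against control (adjusted p = 0.00396). At day 7 its change was 0.64 ± 0.35 (adjusted p = 0.125, 95% interval -0.11 to 1.38), with 4 of 5 grafts above every control. That change was 0.86 without day 7 graft 2 (adjusted p = 0.0446) and 0.65 without day 3 graft 1 (adjusted p = 0.0281). That sample is in neither group of this comparison, but the 3 groups share 1 estimate of the spread per gene, to which it contributes. Leaving it out also changed the number of genes tested, to 16575 from 16051. In TPM, a measure of transcript abundance per length, Flt1 was at 10.3 to 21.95 in day 7 grafts, 10.1 to 53.2 in day 3 grafts and 8.18 to 8.71 in controls. On this scale every graft was above every control, and the change at day 7 passed (1.01 on log2(TPM + 1), limma adjusted p = 0.0138). That scale moved genes upward in general: the median change of all tested genes at day 7 was 0.334, against 0.03 in the main fit. Of the called genes 74.1% were higher on TPM, against 53.1%.

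Kdr, the main signalling receptor for VEGF-A, had overlapping groups throughout. It was at 94.2, 73.7, 102, 107 and 37.2 CPM in day 7 grafts 1 to 5, at 45.4, 122, 67.7, 63.3 and 65.5 CPM in day 3 grafts 1 to 5, and at 95.7, 99.1, 88.0, 159 and 53.8 CPM in controls 1 to 5. In CPM, day 7 graft 5 was the lowest of all 15 samples and control 4 the highest. In TPM day 7 graft 5 was again the lowest, but control 4 was not the highest. Its 22.1 TPM lay below day 3 graft 2 (30.1) and day 7 grafts 1, 3 and 4 (24.8, 27.5 and 29.3). The change was -0.27 ± 0.33 at day 7 (adjusted p = 0.495, 95% interval -0.97 to 0.43) and -0.44 ± 0.33 at day 3 (adjusted p = 0.257, 95% interval -1.13 to 0.26) against control. The intervals reach to both sides of 0.

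Flt4, the receptor for VEGF-C and VEGF-D, was the lowest of the receptor kinase genes. It was at 13.8, 10.2, 19.2, 22.3 and 14.8 CPM in day 7 grafts 1 to 5, at 8.61, 32.01, 16.7, 20.1 and 15.01 CPM in day 3 grafts 1 to 5, and at 8.81, 5.23, 7.60, 5.86 and 12.2 CPM in controls 1 to 5. In each graft group 4 of 5 samples were above every control on this scale. In TPM, which moved genes upward in general, every day 7 graft (2.6 to 5.82) was above every control (0.77 to 2.48). Day 3 graft 1, at 2.07 TPM, was still within the range of the controls. Flt4 rose by 1.01 ± 0.36 at day 7 (adjusted p = 0.0248) and by 1.16 ± 0.36 at day 3 (adjusted p = 0.0117). The call at day 7 was lost when control 2 was left out (0.89, adjusted p = 0.0600), and likewise for control 4 (0.92, adjusted p = 0.0536) and for the third day 7 graft (0.93, adjusted p = 0.0524). Lymphatic endothelial markers did not move with it: at day 7, 3 of 6 fell and 1 rose, and at day 3, 4 fell and 1 rose. Prox1, the transcription factor that defines that cell type, averaged 1.26 ± 0.574 CPM in day 7 grafts, 0.677 ± 0.511 CPM in day 3 grafts and 4.50 ± 2.62 CPM in controls (SD, n = 5). The marker that rose was Pdpn, podoplanin, which fibroblasts and macrophages also make. Those that fell have limits too. Ccl21a ran from 2.06 to 400 CPM within the controls, and Reln and Mmrn1, like Prox1, were low there, at means of 4.32 and 4.86 CPM. The list summed to 160.45 to 678 CPM in day 7 grafts, 217 to 331 CPM in day 3 grafts and 109.9 to 453 CPM in controls, with none of the 6 at 0 in all samples of a group.

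Both neuropilin genes were higher in grafts. Nrp1 was at 164, 154, 155, 164 and 178 CPM in day 7 grafts 1 to 5, at 220.2, 133, 201, 228 and 131 CPM in day 3 grafts 1 to 5, and at 81.2, 87.1, 75.0, 146 and 83.8 CPM in controls 1 to 5. All day 7 grafts were above all controls, within a narrow range, whereas day 3 grafts 2 and 5 were below control 4. That overlap depended on the scale. In TPM, which moved genes upward in general, Nrp1 was at 55.2 to 94.4 in day 3 grafts and 27.4 to 34.6 in controls. Nrp1 rose by 0.83 ± 0.19 at day 7 (adjusted p = 0.00175) and by 0.96 ± 0.19 at day 3 (adjusted p = 6.31e-04). Nrp2 was at 246, 218, 214, 232 and 172 CPM in day 7 grafts 1 to 5, at 141, 129, 151, 178 and 110.2 CPM in day 3 grafts 1 to 5, and at 53.2, 42.1, 55.4, 48.2 and 72.0 CPM in controls 1 to 5. Every graft was above every control, and day 7 grafts 1 to 4 were above every day 3 graft. Nrp2, the co-receptor best known with Flt4 on lymphatic endothelium, rose by 2.01 ± 0.16 at day 7 (adjusted p = 2.08e-07) and by 1.39 ± 0.15 at day 3 (adjusted p = 3.56e-06). Both neuropilins are also made by macrophages and fibroblasts. Markers of fibroblasts and progenitors, of which 4 of 6 rose and 1 fell at day 7 and 3 rose at day 3, summed to 7175 to 8943 CPM in day 7 grafts, 3722 to 7671 CPM in day 3 grafts and 708 to 2658 CPM in controls. Their part, and that of the macrophage markers given above, was not tested.

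**Figure D2:**
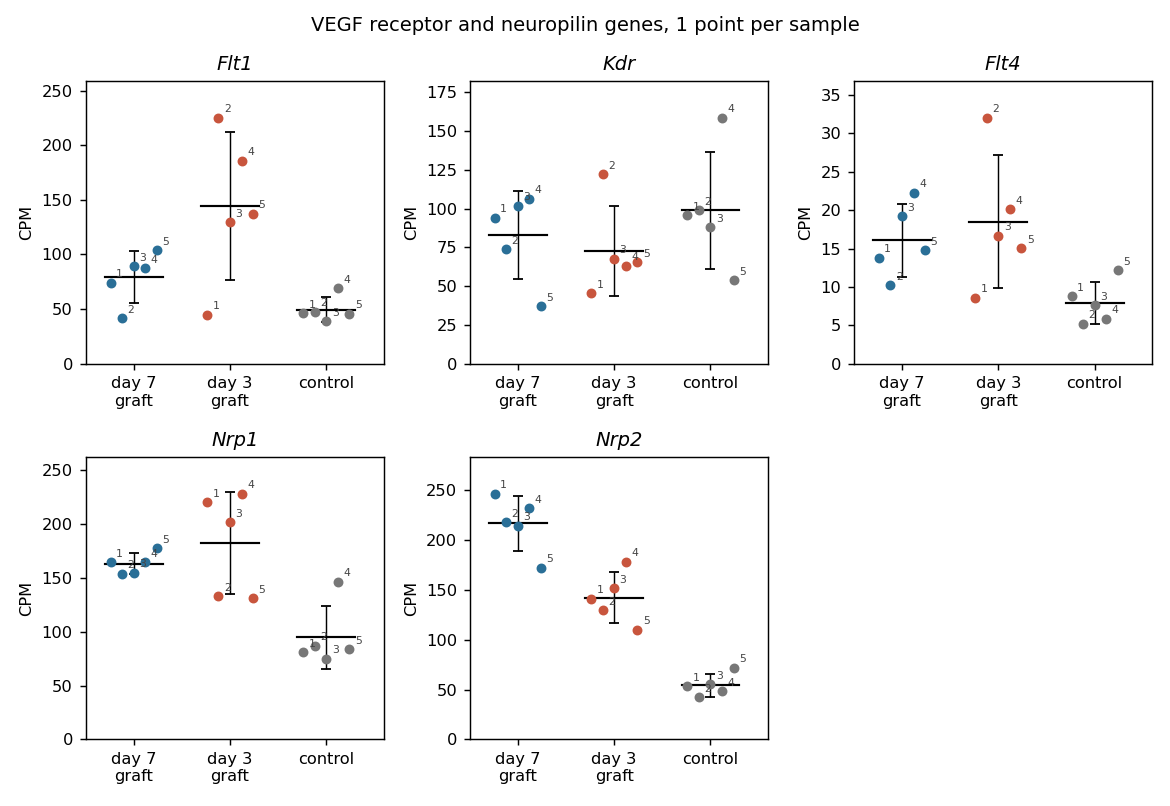
CPM (vertical axis, from 0) of the receptor kinase genes Flt1, Kdr and Flt4 and the neuropilin genes Nrp1 and Nrp2 in day 7 grafts, day 3 grafts and controls, with 1 numbered point per sample, a line at the mean and bars of 1 SD (n = 5). Nrp2 has all grafts above all controls, and Kdr has overlapping groups, with day 7 graft 5 lowest at 37.2 CPM.

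Between the graft times, Vegfc and Nrp2 passed the test, both higher at day 7, and the call of Nrp2 depended on the processing. At day 7 against day 3, 2 of 9 genes were higher and none was lower, where 3.18% of all tested genes were higher, 1.71% lower and 4.88% called in either direction. Without adjustment, Vegfa, Vegfc, Pgf and Nrp2 had p under 0.05, at 0.0309, 1.20e-04, 0.0464 and 0.00164. Vegfc rose by 1.19 ± 0.23 on the log2 scale (8.91 ± 2.09 CPM at day 7 against 3.88 ± 0.662 CPM at day 3, SD, n = 5 each, adjusted p = 0.0111). Its change stayed between 1.09 and 1.3 when each sample was left out. Nrp2 rose by 0.62 ± 0.16 (217 ± 27.8 CPM at day 7 against 142 ± 25.4 CPM at day 3, adjusted p = 0.0406). The call of Nrp2 was lost with the replicate number as a block (0.62, adjusted p = 0.0675), with library totals (adjusted p = 0.0648) and on TPM (adjusted p = 0.0586). It was also lost without control 1, day 3 graft 1, 2, 3 or 5, or day 7 graft 1, 2, 3 or 4, with changes of 0.53 to 0.64 and adjusted p from 0.0572 to 0.106. Vegfa had a change of -1.01 ± 0.42 (adjusted p = 0.194), Pgf of -1.12 ± 0.52 (adjusted p = 0.239) and Flt1 of -0.74 ± 0.36 (adjusted p = 0.263). For Kdr, Flt4, Nrp1 and Vegfb the changes were 0.17, -0.15, -0.13 and -0.06, with adjusted p from 0.788 to 0.964.

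The pair of grafts that lay between the groups weighed on this comparison. Day 7 graft 5 had the highest Vegfa, Pgf and Flt1 and the lowest Kdr and Nrp2 of the day 7 grafts, and its hypoxia score of 7.58 was above the 5.55 to 6.55 of the other day 7 grafts. It also had the highest Nrp1 (178 CPM) and Vegfc (11.07 CPM, against 11.02 in day 7 graft 3) of its group. In Vegfc it was thus not nearer to the day 3 grafts. Its macrophage score was 9.55, against 8.51 to 8.86 in the other day 7 grafts. Day 3 graft 1 had the lowest Vegfa, Vegfb, Pgf, Flt1, Kdr and Flt4 of the day 3 grafts, and a hypoxia score of 6.55 against 6.95 to 7.61. Its score of blood endothelial markers was also the lowest of its group, at 5.27 against 6.05 to 7.03, where day 3 graft 2, with the highest score, was highest in the same 6 genes. With both grafts left out, 3 genes were lower at day 7 than at day 3: Vegfa (-1.60, adjusted p = 0.0150), Pgf (-1.88, adjusted p = 0.0111) and Flt1 (-1.23, adjusted p = 0.0126). Without day 7 graft 5 alone, Vegfa (-1.35, adjusted p = 0.0406) and Pgf (-1.58, adjusted p = 0.0367) passed, and without day 3 graft 1 alone, Flt1 did (-1.12, adjusted p = 0.0295). These grafts were singled out from the same data. Leaving out the grafts nearest the other group tends to widen the difference, so these adjusted p-values are descriptive only. The part of the hypoxia, macrophage and endothelial scores in these values was not tested.

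**Figure D3:**
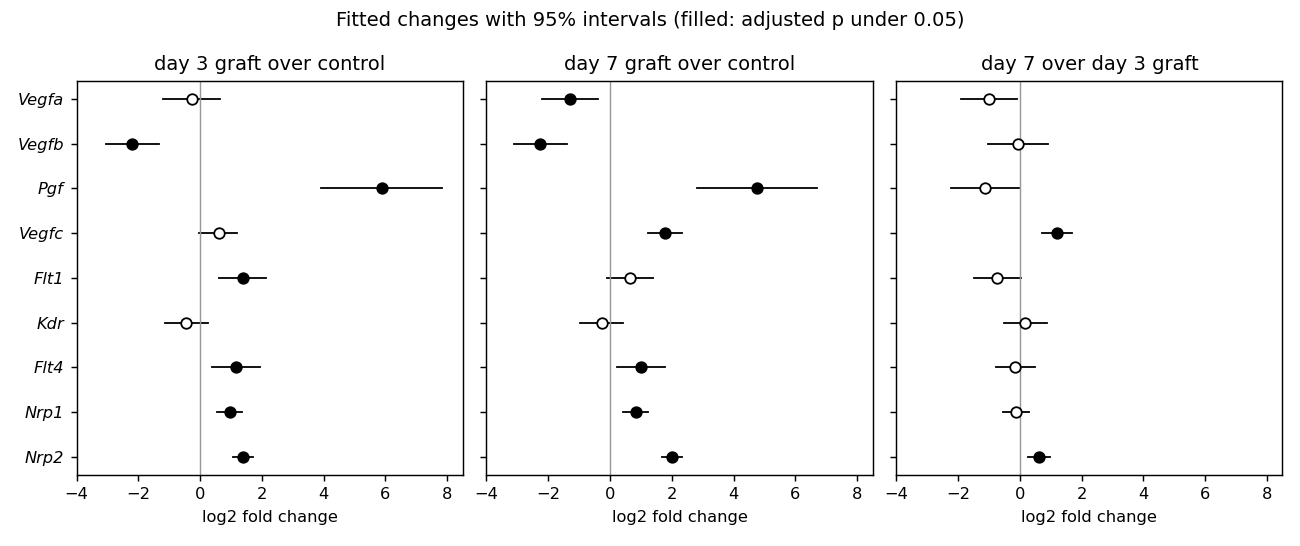
Fitted log2 fold changes (horizontal axis) of the 9 genes with 95% intervals in day 3 grafts over controls, day 7 grafts over controls, and day 7 over day 3 grafts. Filled points passed an adjusted p of 0.05: Pgf stands farthest to the right in both comparisons with controls, Vegfb to the left, and Vegfc and Nrp2 are the filled points between the graft times.

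On the TPM scale, which allows different genes to be compared per length, the order of the family differed between grafts and control tissue. In day 7 grafts Vegfa (92.1 ± 49.6 TPM), Pgf (81.9 ± 64.0) and Nrp1 (72.0 ± 3.08) led, with ranges that overlapped, followed by Nrp2 (52.1 ± 9.14). Below these in day 7 grafts were Kdr (22.0 ± 8.30 TPM), Flt1 (18.5 ± 4.92), Vegfb (11.7 ± 2.12), Vegfc (6.07 ± 1.23) and Flt4 (4.01 ± 1.33). Among these, Kdr overlapped Flt1, Flt1 overlapped Vegfb, and Vegfc overlapped Flt4. In day 3 grafts Vegfa (158 ± 65.3 TPM) and Pgf (144 ± 75.2) overlapped at the top, before Nrp1 (75.2 ± 18.8), Flt1 (32.7 ± 15.8) and Nrp2 (31.7 ± 4.73). Kdr (17.8 ± 7.16 TPM), Vegfb (11.3 ± 2.78), Flt4 (4.25 ± 1.99) and Vegfc (2.48 ± 0.332) followed in day 3 grafts. In controls Vegfa was highest (177 ± 55.6 TPM, mean ± SD, n = 5), with no overlap with the next gene, followed by Vegfb (45.0 ± 18.2), Nrp1 (30.6 ± 2.62), Kdr (18.8 ± 4.25), Nrp2 (10.1 ± 3.27) and Flt1 (8.43 ± 0.203). Pgf, Flt4 and Vegfc came last in controls, at 1.89 ± 0.786, 1.54 ± 0.681 and 1.44 ± 0.847 TPM, with overlapping ranges. The deposited RPKM values gave the same order in each group.

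The make-up of the ligand transcripts differed between grafts and controls, while their sums overlapped. The summed TPM of Vegfa, Vegfb, Vegfc, Pgf and Vegfd was 224 ± 124 in day 7 grafts, 363 ± 143 in day 3 grafts and 236 ± 70.8 in controls. Vegfa made up 41.2 ± 2.97% of this sum in day 7 grafts and 43.3 ± 4.85% in day 3 grafts, against 75.0 ± 1.92% in controls. Its highest share in any graft was 50.6%, and its lowest in any control was 71.9%. Pgf made up 33.1 ± 9.92% in day 7 grafts and 38.4 ± 8.30% in day 3 grafts, against 0.911 ± 0.519% in controls. For Vegfb the shares were 6.66 ± 3.78% and 3.38 ± 1.00% in day 7 and day 3 grafts, against 18.5 ± 4.04% in controls, with day 7 graft 2 (12.5%) above control 5 (11.6%). Vegfc made up 3.20 ± 1.23% in day 7 grafts, 0.792 ± 0.378% in day 3 grafts and 0.736 ± 0.634% in controls. Vegfd held 15.8 ± 6.77% in day 7 grafts, 14.2 ± 6.18% in day 3 grafts and 4.83 ± 2.53% in controls.

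The balance between receptor genes also differed, with some overlap at day 7. Flt1 had 42.5 ± 12.9% of the summed TPM of the 3 receptor kinase genes in day 7 grafts and 57.9 ± 9.16% in day 3 grafts, against 29.8 ± 4.89% in controls. Kdr had 48.6 ± 13.4% in day 7 grafts and 34.3 ± 8.63% in day 3 grafts, against 64.6 ± 7.91% in controls. The ratio of Flt1 to Kdr was 0.715, 0.521, 0.778, 0.731 and 2.55 in day 7 grafts 1 to 5, 0.881, 1.77, 1.82, 2.72 and 1.88 in day 3 grafts 1 to 5, and 0.429, 0.425, 0.387, 0.383 and 0.755 in controls 1 to 5. Every day 3 graft was above every control, while day 7 grafts 1, 2 and 4 were below control 5. The ratio of Nrp2 to Nrp1 was 0.525 to 0.810 in day 7 grafts, 0.346 to 0.531 in day 3 grafts and 0.179 to 0.466 in controls, with day 7 graft 5 at the low end of its group and within the range of the day 3 grafts. These shares and ratios are descriptions and carry no test.

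**Figure D4:**
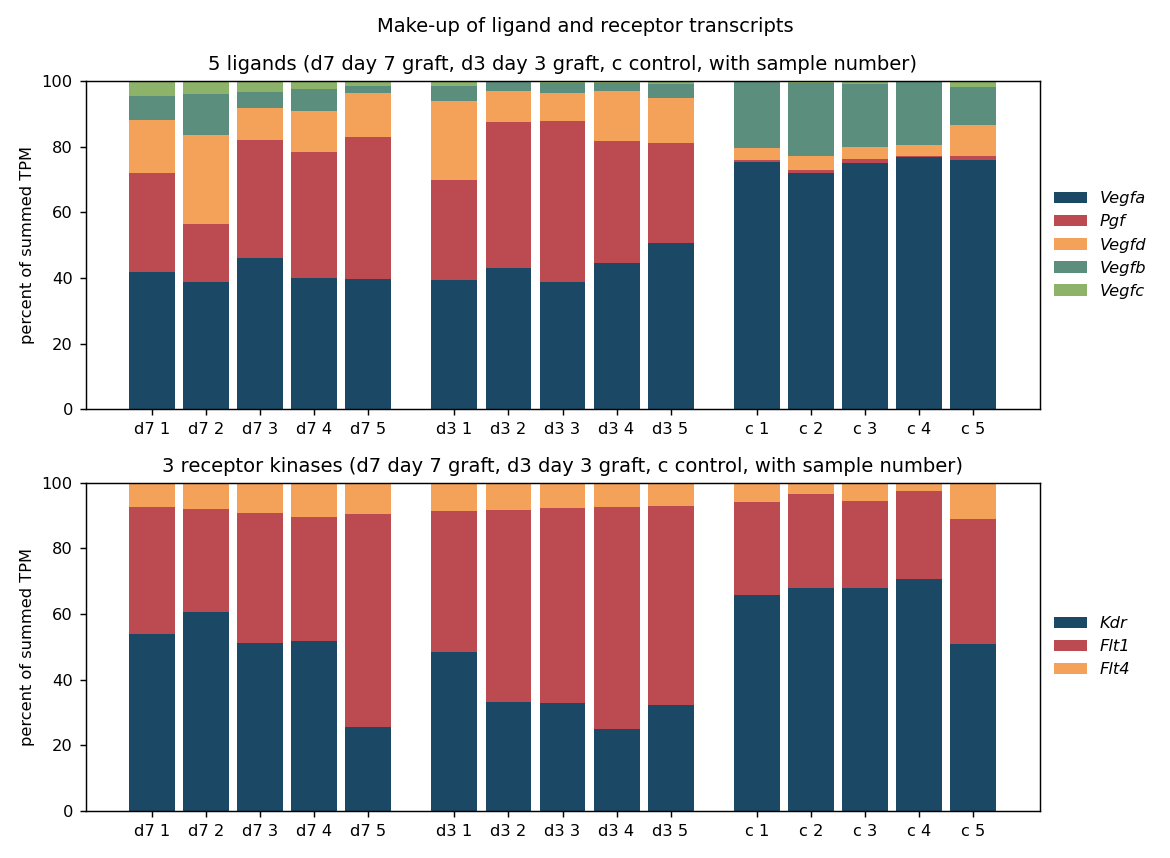
Percent of summed TPM (vertical axis, 0 to 100) taken by each of 5 ligand genes (upper panel) and 3 receptor kinase genes (lower panel) in each sample, with day 7 grafts, day 3 grafts and controls from left to right. Pgf takes 17.6% to 49.2% of the ligand transcripts in the grafts and under 1.5% in each control, and Flt1 takes a larger share than Kdr in day 3 grafts 2 to 5 and day 7 graft 5.

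The receptor kinase genes are chiefly endothelial, so they and the neuropilin genes were also set against 11 blood endothelial markers of the same libraries. The neuropilins are also made by macrophages and fibroblasts, so their values relative to these markers are not levels per endothelial cell. The part of those other cells was not tested. Of these markers 8 rose and none fell at day 7 against control, and 6 rose and none fell at day 3, with medians of 0.93 and 0.70. Over all tested genes 32.2% were higher at day 7 and 30.1% at day 3. The list summed to 816 to 1454 CPM in day 7 grafts, 569 to 1883 CPM in day 3 grafts and 511 to 707 CPM in controls, with no marker at 0. Single markers changed by -0.24 (Tek) to 1.66 (Cdh5) at day 7 and by -0.12 (Tek) to 1.86 (Emcn) at day 3. Kdr, at -0.27 and -0.44, lay near Tek, so a lag behind the mean of the list was not particular to Kdr. Relative to the mean log2(CPM + 1) of the markers, Kdr was lower in grafts. This difference was 0.20 ± 0.40 in day 7 grafts and 0.01 ± 0.14 in day 3 grafts, against 1.28 ± 0.43 in controls (SD, n = 5 each). The highest graft was at 0.50 and the lowest control, control 5, at 0.53. An exact two-sided permutation test gave p = 0.00794 for both comparisons of Kdr with controls, which is the smallest p that 5 against 5 samples allow, and 0.0397 adjusted over 15 tests. Nrp2 relative to the markers was higher at day 7, at 1.66 ± 0.26 against 0.48 ± 0.42 in controls (exact permutation p = 0.00794, adjusted p = 0.0397). The other 12 comparisons did not pass. For Flt1 the difference between day 3 grafts and controls was 0.53 (0.88 ± 0.45 against 0.35 ± 0.12, exact permutation p = 0.0397, adjusted p = 0.149). Flt4 and Nrp1, which were called higher in both graft groups on their own, differed from controls by 0.01 to 0.23 relative to the markers (exact permutation p from 0.444 to 0.937). With a sample left out the smallest p that 4 against 5 samples allow is 0.0159. Comparisons without the sample's group kept their p, but their adjusted p also depends on the other tests. The 3 calls were lost for each sample left out other than day 7 graft 5, with adjusted p of 0.0595 or 0.0794. Without day 7 graft 5 they were kept, and Flt1 (-0.91) and Kdr (0.37) passed at day 7 against day 3 as well (exact permutation, adjusted p = 0.0476 each). Over all samples left out in turn the differences lay between -1.26 and -0.90 for Kdr at day 7, -1.46 and -1.20 for Kdr at day 3, and 1.03 and 1.3 for Nrp2 at day 7.

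**Figure D5:**
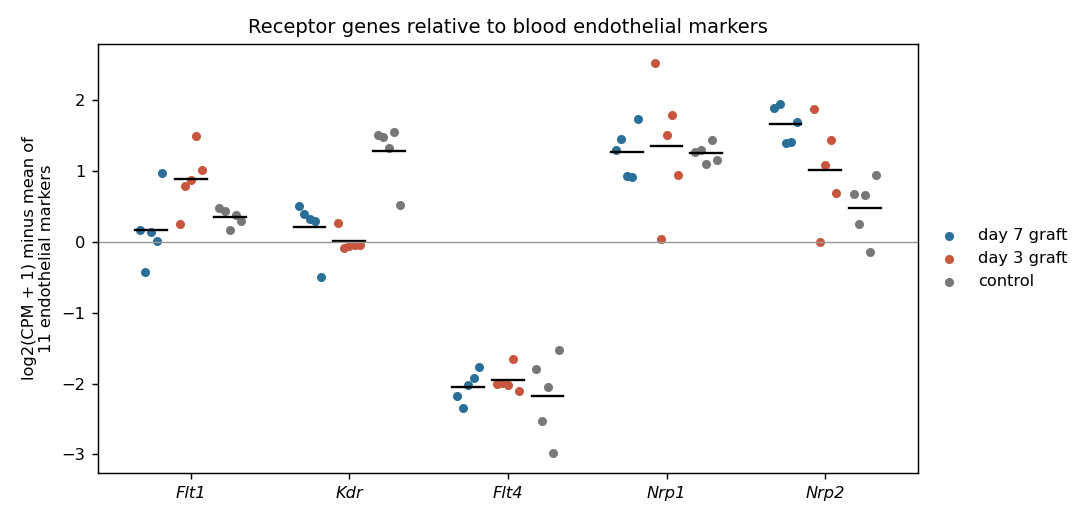
log2(CPM + 1) of each receptor or neuropilin gene minus the mean log2(CPM + 1) of 11 blood endothelial markers (vertical axis), with 1 point per sample and a line at the mean of day 7 grafts, day 3 grafts and controls (n = 5 each). Kdr is lower in all grafts (at most 0.50) than in all controls (at least 0.53), and Nrp2 is higher in all day 7 grafts than in all controls.

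Genes that process the ligands of Flt4 were mostly higher in grafts as well. Of 10 genes for the maturation of VEGF-C and VEGF-D, Vegfd included, 9 were higher and none lower at both times, with a median of 2.45 at day 7 and 1.92 at day 3. The shares of all tested genes called higher were 32.2% at day 7 and 30.1% at day 3. Ccbe1, a secreted protein that helps Adamts3 cleave VEGF-C, averaged 42.6 ± 17.1 CPM in day 7 grafts against 0.897 ± 0.795 CPM in controls (5.74 ± 0.66, adjusted p = 4.99e-06). It was also the gene of this list that differed between the graft times, with 11.4 ± 5.33 CPM at day 3 (1.90 ± 0.33 at day 7 over day 3, adjusted p = 0.00704). Adamts14, a protease related to Adamts3, rose by 2.77 ± 0.31 at day 7 (adjusted p = 4.43e-06) and by 2.65 ± 0.32 at day 3 (adjusted p = 7.40e-06). Plau, urokinase, rose by 2.47 ± 0.25 at day 7 (adjusted p = 1.64e-06) and by 2.63 ± 0.25 at day 3 (adjusted p = 1.14e-06). Furin, a proprotein convertase, rose by 1.17 ± 0.17 at day 7 (limma-voom adjusted p = 3.84e-05) and by 1.23 ± 0.17 at day 3 (adjusted p = 2.70e-05).

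Among 10 receptor partners and trafficking genes, of which Cdh5 is also an endothelial marker above, 6 were higher and none lower at day 7, and 7 were higher and 1 lower at day 3. Of all tested genes 32.2% were higher and 28.4% lower at day 7, and 30.1% and 30.3% at day 3. In either direction 60.7% of all tested genes were called at day 7, near the 6 of 10 here. Ptprb, the endothelial phosphatase that restrains Kdr and Tie2 signalling, was at 86.7 ± 19.4 CPM in day 7 grafts, 36.7 ± 15.03 CPM in day 3 grafts and 77.6 ± 27.7 CPM in controls. It fell by 1.11 ± 0.27 at day 3 against control (adjusted p = 0.00235) and rose by 1.3 ± 0.27 at day 7 against day 3 (adjusted p = 0.0147). Dab2 and Efnb2, which act in VEGF receptor endocytosis, rose by 2.76 ± 0.39 and 1.94 ± 0.20 at day 7 and by 2.97 ± 0.40 and 1.72 ± 0.20 at day 3 (adjusted p from 1.57e-06 to 3.18e-05). Dab2 is also abundant in macrophages. Pdcl3, a chaperone of Kdr, rose by 0.73 ± 0.11 at day 7 (adjusted p = 4.53e-05) and by 0.86 ± 0.11 at day 3 (adjusted p = 1.12e-05).

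The 25 genes of signalling below the receptors, most of which are used by many pathways, went both ways. At day 7, 9 were higher and 5 lower, where 32.2% and 28.4% of all tested genes were, and at day 3, 8 were higher and 6 lower, where 30.1% and 30.3% were. These counts are near the shares of all genes, and the medians were 0.07 and 0.15. Akt1 (1.07 ± 0.10 at day 7 and 0.99 ± 0.10 at day 3), Pxn (0.91 ± 0.11 and 1.32 ± 0.12) and Cdc42 (0.78 ± 0.10 and 0.97 ± 0.10) rose at both times (adjusted p from 6.22e-07 to 1.07e-05). Nos3, the endothelial nitric oxide synthase, averaged 12.8 ± 4.16 CPM in day 7 grafts against 45.6 ± 18.6 CPM in controls and fell by 1.81 ± 0.35 (adjusted p = 4.08e-04). At day 3 Nos3 fell by 1.26 ± 0.33 (limma-voom adjusted p = 0.00405). The adaptor Shb fell by 0.82 ± 0.18 at day 7 (adjusted p = 0.00108). Plcg1, the phospholipase that binds activated Kdr, fell by 0.43 ± 0.18 at day 7 (limma-voom adjusted p = 0.0454) and by 0.88 ± 0.17 at day 3 (adjusted p = 5.30e-04). Prkca, a protein kinase C, fell by 0.94 ± 0.16 at day 3 (adjusted p = 1.95e-04). Pik3r1, a regulatory subunit of phosphoinositide 3-kinase, fell by 1.36 ± 0.32 at day 7 and by 1.23 ± 0.32 at day 3 (adjusted p = 0.00198 and 0.00397). At day 7 against day 3, 2 genes were higher, Src (0.70 ± 0.18, adjusted p = 0.0364) and Prkca (0.60 ± 0.16, adjusted p = 0.0497).

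Of 7 genes that VEGF is known to induce in endothelial cells, 5 were higher and none lower at both times, with medians of 1.89 at day 7 and 2.49 at day 3. Among all tested genes 32.2% were higher at day 7 and 30.1% at day 3. Apln, the peptide apelin, averaged 197 ± 94.1 CPM in day 7 grafts and 280 ± 178 CPM in day 3 grafts, against 3.92 ± 1.59 CPM in controls (5.49 ± 0.67 and 5.98 ± 0.67, adjusted p = 7.79e-06 and 4.48e-06). Angpt2, an angiopoietin of sprouting vessels, rose by 3.87 ± 0.56 at day 7 and by 3.39 ± 0.56 at day 3 (adjusted p = 4.03e-05 and 1.28e-04). Esm1, a marker of tip cells, averaged 41.1 ± 20.9 CPM at day 7 against 0.746 ± 0.322 CPM in controls (5.60 ± 0.99, adjusted p = 2.22e-04). At day 3 Esm1 rose by 4.81 ± 1.0 (limma-voom adjusted p = 8.46e-04). Rcan1 rose by 0.90 ± 0.22 at day 7 (adjusted p = 0.00272) and by 1.28 ± 0.22 at day 3 (adjusted p = 1.87e-04). Some of these genes also respond to low oxygen.

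Class 3 semaphorins and plexins, the other ligands and partners of neuropilins, were higher in 5 of 12 genes at day 7 and in 4 of 12 at day 3, with none lower. The counts of higher genes are near the 32.2% and 30.1% of all tested genes. Plxna1 and Plxnd1 rose by 1.48 ± 0.18 and 1.41 ± 0.21 at day 7 and by 1.11 ± 0.17 and 1.26 ± 0.21 at day 3 (adjusted p from 6.55e-06 to 1.44e-04). Plxna4 rose by 1.80 ± 0.22 at day 7 (adjusted p = 8.28e-06) and by 1.14 ± 0.23 at day 3 (adjusted p = 6.63e-04) against control. It rose by 0.66 ± 0.18 at day 7 against day 3 (adjusted p = 0.0469). Sema3f, a ligand of Nrp2, rose by 1.85 ± 0.44 at day 7 (limma-voom adjusted p = 0.00223) and by 2.67 ± 0.43 at day 3 (adjusted p = 1.06e-04).

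Hypoxia-inducible factors and targets were mostly higher, with 10 of 15 higher and 1 lower at day 7 and 12 higher and 1 lower at day 3 (medians 1.82 and 2.32). For all tested genes the shares were 32.2% higher and 28.4% lower at day 7, and 30.1% and 30.3% at day 3. Hif1a was at 354 ± 107 CPM in day 7 grafts against 99.3 ± 30.2 CPM in controls (1.82 ± 0.24, adjusted p = 1.47e-05). At day 3 Hif1a rose by 1.35 ± 0.23 (limma-voom adjusted p = 1.77e-04). The gene that was lower at both times was Epas1, which encodes HIF-2α, at 92.1 ± 16.8 CPM in day 7 grafts and 77.1 ± 35.9 CPM in day 3 grafts, against 184 ± 59.5 CPM in controls (-0.96 ± 0.33 and -1.36 ± 0.32, adjusted p = 0.0192 and 0.00227). P4ha1, a collagen hydroxylase, rose by 2.79 ± 0.32 at day 7 and by 3.35 ± 0.33 at day 3 (adjusted p = 4.62e-06 and 1.29e-06). Of 4 genes for proteins that bind Vegfa mRNA, none passed at day 7 against control in limma-voom (adjusted p from 0.505 to 0.787). At day 3, 2 were higher, Zfp36, whose product destabilises Vegfa mRNA (1.67 ± 0.15, adjusted p = 8.27e-07), and Zfp36l1 (0.48 ± 0.14, adjusted p = 0.00688). Zfp36 averaged 83.9 ± 9.44 CPM at day 7 against 248 ± 43.2 CPM at day 3 (-1.55 ± 0.15, adjusted p = 1.66e-04).

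Genes with the profile most like each member were sought among the 11240 tested genes that averaged 5 CPM or more. The measure was the mean absolute difference over 15 samples between log2(CPM + 1) profiles, each centred on its own mean. Vegfa was nearest to Gys1, the glycogen synthase of muscle and other tissues (0.26), and Mturn (0.28), and Vegfb to Ctdspl (0.14) and Tmem143 (0.15). The nearest to Vegfc were Sgk1, a serum-induced kinase (0.20), and Fndc4 (0.21), and to Pgf Ndufa4l2, a mitochondrial protein induced by low oxygen (0.42), and AA467197 (0.43). Flt1 was nearest to Spry4, a feedback inhibitor of receptor kinase signalling (0.27), and Pvr (0.28), Kdr to Lpar6 (0.19) and Caskin2 (0.20), and Flt4 to Nectin2 (0.20) and Pakap (0.22). The closest likeness was that of Nrp1 to Crybg3 (0.11) and Spg20 (0.12), followed by Nrp2 to Tns3, a focal adhesion protein (0.12), and Gusb, a lysosomal enzyme (0.18). The profile of Pgf spanned 6.59 log2 units over the samples and that of Nrp1 1.59, so the distances are not on an equal footing.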

How the data were processed

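The deposited matrix holds 55471 genes and 45 value columns, 3 for each of 15 mouse samples, and all were mapped by sample number. The tools cutadapt (2.8), STAR (2.7.1a) and RSEM (1.3.1) and the build mm10 appear, without roles, in the submitters' processing notes, and the kit, per the labels, keeps strand and was read as pairs of 151 bp. The authors' estimated count columns hold whole numbers without scaling, written with digit separators. They therefore went to limma-voom, as planned, and to no count model. The deposited RPKM and TPM values, which the authors scaled to length and depth, served for levels between genes and for alternatives.

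Tested genes had at least 0.389 CPM (10 counts at the median library) in 5 samples and 15 counts in all, which left 16051. Trimmed means of M-values (trims 30% and 5%) scaled the libraries. The voom fit of limma 3.58.1 in R 4.3.3 had 3 group means, and p-values were adjusted over all tested genes by the Benjamini-Hochberg method. It was tested first on simulated counts with a set dispersion of 0.1 and 200 changed genes. There it recovered 97% to 100% of 4-fold changes, 28.4% to 40.3% of 2-fold changes and 1.49% to 7.46% of 1.5-fold changes. False calls were 4 or 5 per comparison. A gene that was not called may therefore still have changed. The rates hold for the simulated setting only. Against control, 9736 genes were called at day 7 and 9688 at day 3, many more than the 200 changed in the simulation. The rates therefore do not carry over to those comparisons. Receptors relative to endothelial markers were compared by exact permutation in scipy 1.17.1. Other software was data.table (1.17.8), pandas 2.3.3 and matplotlib 3.10.9. Total counts of 17.1 to 32 M limit the precision of low genes.

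The members, the 7 pathway lists and the 9 marker lists were chosen with earlier results of these data known. In each pathway list up to 3 called genes per direction and comparison, those with the smallest adjusted p, could be named, and 2 genes of like profile per member, leaving out predicted genes. Alternatives changed scaling, filter, samples in the fit, test, weights and pseudocount, used a replicate block or left out samples. The labels do not say whether samples came from separate animals, so p-values measure the spread between these samples, which may be technical.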

Additional observations from a re-analysis of the deposited data

Results flagged for a closer look

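Vegfc in control 5 stood far above the other controls, at 5.12 CPM against 1.89 to 2.58 CPM. In TPM its Vegfc was at 2.83 against 0.68 to 1.62, not far enough apart to stand out by the criterion used. Nrp1 in control 4 stood far above the other controls, at 146 CPM against 75.0 to 87.1 CPM. This depends on the scale: control 4 had the lowest scaling factor (0.746, against 0.946 to 1.138 in the other libraries), and in TPM its Nrp1 was at 34.6 against 27.4 to 31.0, not far enough apart to stand out by the same criterion. These are 2 of 27 groups of 5 samples examined, and chance alone marks about 1 in 20.

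The change against control differed between the graft times for Vegfc and Nrp2, and the shared controls drop out of this difference, which is the comparison of day 7 with day 3 grafts in limma-voom. For Vegfc it was 1.19 on the log2 scale (adjusted p = 0.0111, higher in 5 of 5 day 7 grafts than in every day 3 graft). For Nrp2 it was 0.62 (adjusted p = 0.0406, higher in 4 of 5 day 7 grafts than in every day 3 graft), and this call was lost with the replicate block (adjusted p = 0.0675), with library totals (adjusted p = 0.0648), on TPM (adjusted p = 0.0586) and with any of 9 of the 15 samples left out.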

How the results depend on the processing

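Of 756 recomputed changes of the 9 genes, 714 kept their direction and side of the threshold, 15 lost a call, 16 gained one and 11 turned, none of them called. Those that turned with other settings were Vegfa at day 3 against control (0.0009 without day 3 graft 1 and day 7 graft 5), Kdr at day 7 against control (0.14 on log2(TPM + 1), 0.01 without those grafts), Vegfb at day 7 against day 3 (0.05 on TPM) and Flt4 (0.01 with quality weights). Leaving out each sample gave ranges of -0.45 to 0.02 for Vegfa at day 3 against control, and of -0.19 to 0.05 for Vegfb and -0.39 to 0.08 for Flt4 at day 7 against day 3. The cause was not tested. Relative to endothelial markers, Flt4 was at -0.11 (day 3) and -0.21 (day 7) against control on TPM and at -0.07 to 0.3 at day 7 with samples left out. Nrp1 was then at -0.18 to 0.44 (day 3 against control), -0.11 to 0.1 (day 7 against control) and -0.42 to 0.2 (day 7 against day 3). With samples left out, 0 to 5 of the 15 relative comparisons passed, against 3 with all samples.

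At day 7 against day 3 the genes called higher were 1 in place of 2 with library totals, the replicate block or TPM, since Nrp2 missed (adjusted p = 0.0648, 0.0675 and 0.0586), and 1 to 2 with samples left out. Genes called lower were 2 with quality weights, Vegfa and Pgf (adjusted p = 0.0131 and 0.0469), 3 without day 3 graft 1 and day 7 graft 5, a pair picked from these same data, and 0 to 2 with single samples left out, against 0. Over all genes 510 were higher and 274 lower. Quality weights gave 2135 and 1533, leaving out those grafts 949 and 592, a fit of the 2 graft groups 650 lower, and single samples left out 228 to 943 and 86 to 620. Against control, quality weights called Vegfc at day 3 (0.83, adjusted p = 0.0124) and Flt1 at day 7 (0.69, adjusted p = 0.0381). TPM did so too (0.57 and 1.01, adjusted p = 0.0226 and 0.0138), and without controls 2 and 5 Vegfc passed (0.86, adjusted p = 0.0274). On TPM the genes called lower were 2967 at day 3 and 2585 at day 7, against 4856 and 4566. There the median of all genes lay at 0.334 (day 7) and 0.216 (day 3) and 74.1% and 68% of called genes were higher, against 53.1% and 49.9%.

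Samples with the same number did not deviate together (5 of 15 pairs correlated above 0.1, range -0.183 to 0.341, and 4 of 15 samples correlated best with their own number), so the replicate block is an alternative only. It ended the call of Nrp2 at day 7 against day 3 and no other of the 9 genes. Vegfc and Pgf averaged a few CPM in controls, where counting error limits their precision.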

Other observations

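Markers of mural cells, the pericytes and smooth muscle cells that VEGF-driven vessels recruit, differed between the graft times. Of 7 such markers 4 were higher and none lower at day 7 against day 3, where 3.18% of all tested genes were higher and 1.71% lower. The list summed to 368 to 1333 CPM in day 7 grafts, 229 to 471 CPM in day 3 grafts and 313 to 389 CPM in controls. The 4 genes, named after their values were seen, were Acta2, which myofibroblasts also make (492.5 ± 189 CPM at day 7 against 85.5 ± 20.95 CPM at day 3, adjusted p = 0.00125), Pdgfrb (252 ± 89.9 against 78.1 ± 26.2 CPM, adjusted p = 0.0111), Notch3 (45.4 ± 23.5 against 10.5 ± 4.73 CPM, adjusted p = 0.0239) and Myh11 (17.8 ± 8.65 against 2.43 ± 1.93 CPM, adjusted p = 0.0203). Cspg4, another marker of the list, was lower than in controls at both times, at 22.3 ± 9.38 CPM in day 7 grafts and 23.9 ± 11.7 CPM in day 3 grafts, against 73.9 ± 23.1 CPM in controls (adjusted p = 5.75e-04 and 9.18e-04, limma-voom, n = 5 each). In controls Acta2 was at 38.3 ± 11.4, Pdgfrb at 50.9 ± 20.1, Notch3 at 17.5 ± 3.26 and Myh11 at 26.3 ± 6.17 CPM. Myh11 thus fell at day 3 against control (-3.67 ± 0.63, limma-voom adjusted p = 1.85e-04). At day 7 it was not above controls (-0.76 ± 0.41, adjusted p = 0.124), whereas Acta2, Pdgfrb and Notch3 were (adjusted p from 5.80e-07 to 0.0267). Day 7 graft 5 had the lowest mural score of its group, at 4.70 against 6.12 to 6.65, near the 4.23 to 5.48 of the day 3 grafts.

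The remaining marker lists are given as values. All 5 lymphocyte markers were lower in grafts at both times, at summed levels of 5.28 to 15.2 CPM in day 7 grafts, 1.77 to 4.53 CPM in day 3 grafts and 91.0 to 1284 CPM in controls. Of 4 neutrophil markers 3 were higher at both times, at sums of 150.1 to 905 CPM in day 7 grafts, 70.1 to 415 CPM in day 3 grafts and 18.6 to 138 CPM in controls. Skeletal muscle markers summed to 1.39 to 212 CPM in day 7 grafts, 2.09 to 241 CPM in day 3 grafts and 18.0 to 2953 CPM in controls, with an adjusted p from 0.0517 to 0.215 for the 5 genes against control.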
